A study of Homo sapiens with 18 samples.

Results

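The lapatinib-resistant line SKBR3-R was compared with its parental line SKBR3 under 0.1 µM lapatinib, with 3 Illumina expression arrays for each line. These 6 of the series' 18 arrays were chosen by the line and treatment in their labels and by no measured value. SKBR3 is an established human breast cancer line with amplified ERBB2, and lapatinib blocks the kinase activity of EGFR and ERBB2. The other 12 arrays hold both lines under basal conditions and under 1 µM lapatinib, again 3 arrays a group, and served to estimate the spread and to set the low dose beside the other treatments. The labels do not give how long the drug was present, whether the resistant line is 1 clone, how it was made, or whether replicates came from separate cultures. The p-values therefore rest on the spread among these samples alone, and that spread may be technical.

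ERBB2 is a receptor tyrosine kinase that pairs with EGFR and ERBB3 and feeds the MAPK and PI3K-AKT pathways, on which the division of ERBB2-amplified cells depends. When its kinase is blocked, transcripts of MAPK feedback genes and of cell division usually fall, while targets of FOXO transcription factors rise. A resistant line is one that keeps growing under the drug, and the low dose shows how far the transcripts of such cells differ from those of sensitive cells under the same exposure.

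The 6 arrays carried the markers of the labelled cells. Of 11 markers of SKBR3 and luminal epithelium, 10 were above background on all 6 arrays, and GATA3 was above it on 1 of 3 parental and 0 of 3 resistant arrays. Of 9 fibroblast markers 8 were above background on no array. Of 8 leukocyte markers with a probe, CD14, CD68 and LYZ were above background on all 6 arrays, and PTPRC and ITGAM on none. MS4A1 was above it on 1 parental and 2 resistant arrays, and CD3D and CD3E each on 0 parental and 1 resistant arrays. Of 7 endothelial markers, PECAM1, CDH5, VWF and ENG were above background on all 6 arrays and CLDN5 on none. KDR was above it on 1 parental and 0 resistant arrays, and TEK on 1 array of each line. The summed signal of the leukocyte list was 1477 to 1925 in the parental and 1693 to 1994 in the resistant arrays, and that of the endothelial list 777 to 853 and 864 to 1075. LYZ (0.51), VWF (0.43) and ENG (0.84) were higher in the resistant line on the log2 scale, although the mean of the probes of LYZ was not called (adjusted p = 0.0665), and the part of other cells in these values was not tested. In bulk RNA, fewer cells of a type and less RNA per cell cannot be told apart.

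Mean signal before normalization was 533 ± 21.2 (SD, n = 3) in the parental and 425 ± 8.16 (SD, n = 3) in the resistant group. Precision is limited by the number of arrays, and the median tested gene was 3.01 to 3.14 times as bright as background on the parental and 2.81 to 3.19 times on the resistant arrays. Replicates correlated across genes, which are not independent, at r = 0.993 to 0.995 in the parental and 0.986 to 0.992 in the resistant group. Replicate 3 of the resistant group stood farthest from the mean of the other replicates. The root mean square distance was 0.301 on the log2 scale, against 0.237 for each of the other arrays of the group. Quantile normalization gives all arrays 1 distribution, so differences are relative to the other probes of the same arrays.

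Of 12547 genes tested, 2528 (20.1%) passed an adjusted p of 0.05 (limma, Benjamini-Hochberg, two-sided), 1226 higher (9.77%) and 1302 lower (10.4%) in the resistant line. At least 2-fold differences were fewer, with 67 genes higher (0.534%) and 97 lower (0.773%), together 1.31% of genes. The arrays of the lines did not overlap in 30.5% of genes. When arrays were instead scaled by their medians, 2595 genes passed with 475 higher and 2120 lower, and the median difference over all genes moved from -0.0018 to -0.085. Fitting only the 6 arrays gave 1474 calls. The same step gave more calls under basal conditions (2218 against 1944) and at 1 µM (3362 against 2667). The order of the treatments by calls was therefore not settled. Below, a value in parentheses after a gene is its log2 difference, resistant minus parental, at 0.1 µM, and a call means this adjusted p.

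The 3 largest rises were in neighbouring genes of the PAGE family on the X chromosome. They are cancer-testis genes, whose transcripts are usually limited to germ cells and reappear in tumours. PAGE2 measured 7.07, 6.70 and 6.99 (normalized signal, log2) in the parental arrays and 12.94, 12.85 and 12.04 in the resistant arrays. All 3 resistant arrays stood far above all 3 parental arrays, which lay just over the background limit of 6.48 to 6.50. The difference was 5.69 ± 0.23 (SE), or 51.7-fold (limma adjusted p = 1.16e-16). PAGE5 (5.33, 40.3-fold) and PAGE2B (5.27, 38.6-fold) were nearly as far apart, although the other probes of PAGE5 gave 4.80 and 0.15. The genes are close copies of each other, so their signals may not be separate. The likeness reaches into their promoter windows (300 bases around the start, RefSeq, GRCh38.p14, plus strand): chrX:55088768-55089067 for PAGE2, chrX:55074780-55075079 for PAGE2B and chrX:55220096-55220395 for PAGE5. The windows are shown so that the copies can be compared. Capitals mark the 207 bases that are the same and aligned to each other in all 3 windows of 300 bases.
PAGE2: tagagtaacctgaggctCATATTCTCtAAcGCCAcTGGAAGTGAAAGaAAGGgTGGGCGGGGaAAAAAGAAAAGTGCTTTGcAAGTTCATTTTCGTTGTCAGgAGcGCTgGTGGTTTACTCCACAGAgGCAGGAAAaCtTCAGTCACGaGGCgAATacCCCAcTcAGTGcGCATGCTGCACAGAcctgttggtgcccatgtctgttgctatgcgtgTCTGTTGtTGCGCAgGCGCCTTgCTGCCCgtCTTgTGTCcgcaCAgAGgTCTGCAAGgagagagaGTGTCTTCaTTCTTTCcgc
PAGE2B: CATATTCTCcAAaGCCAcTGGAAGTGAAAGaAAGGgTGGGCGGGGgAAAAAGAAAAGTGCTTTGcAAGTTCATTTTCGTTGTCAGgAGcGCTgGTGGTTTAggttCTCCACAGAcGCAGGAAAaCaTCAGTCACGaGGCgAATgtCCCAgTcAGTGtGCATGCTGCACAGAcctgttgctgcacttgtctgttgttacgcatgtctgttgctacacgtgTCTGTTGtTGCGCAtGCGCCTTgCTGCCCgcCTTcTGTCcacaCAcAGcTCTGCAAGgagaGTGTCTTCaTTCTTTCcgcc
PAGE5: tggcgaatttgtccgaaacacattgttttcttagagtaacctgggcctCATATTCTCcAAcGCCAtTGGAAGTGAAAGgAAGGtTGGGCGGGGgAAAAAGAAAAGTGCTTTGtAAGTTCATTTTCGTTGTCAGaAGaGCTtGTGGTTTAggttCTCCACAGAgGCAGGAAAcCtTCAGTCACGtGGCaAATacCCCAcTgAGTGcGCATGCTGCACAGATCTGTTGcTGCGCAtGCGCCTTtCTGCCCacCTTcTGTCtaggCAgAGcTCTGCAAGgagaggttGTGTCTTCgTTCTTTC
Over the aligned bases PAGE2 and PAGE2B were 93.2% identical (19 differences in 279 bases), PAGE2 and PAGE5 88.7% (30 in 265) and PAGE2B and PAGE5 89.5% (26 in 248).

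In all, 8 of 20 tested cancer-testis genes were higher and 2 lower, with a median of 0.19. SSX2 (1.16), XAGE2 (1.07), MAGEB2 (1.03), SSX4 (0.61) and MAGEC2 (0.41) were higher as well. MAGEA1 (-1.29) and CTAG2 (-0.46) went the other way, so the list did not move as a whole. MAGEA1 measured 10.41, 10.20 and 10.23 in the parental and 8.86, 8.89 and 9.22 in the resistant arrays.

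Genes of embryonic and fetal globins, the oxygen carriers of early red cells, were also higher. HBE1, the embryonic beta-like globin, measured 8.35, 8.27 and 8.75 in the parental and 11.15, 11.17 and 11.06 in the resistant arrays. That is a difference of 2.67 ± 0.11, or 6.36-fold, with no overlap. The fetal globins HBG1 (1.99) and HBG2 (1.96), whose sequences are near-identical, were higher too, and the other 3 of 6 tested globins were not called.

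SCIN, a calcium-dependent protein that severs actin filaments, was the largest rise outside these families. Its parental arrays read 8.08, 8.06 and 7.97 and its resistant arrays 12.54, 12.49 and 12.87. The difference of 4.60 ± 0.13 (24.2-fold, adjusted p = 5.96e-20) had the smallest p of all genes tested. NLGN4X, a synaptic adhesion protein, was below background on all 3 parental arrays and at least 6.34-fold higher in the resistant line, with 1.12 and 0.61 at its other probes. PARVB, which links integrins to actin, was likewise at least 4.15-fold higher, but its other probe gave -0.25. FSTL5, a follistatin-like secreted protein, was at least 3.29-fold higher.

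TARP, a transcript of the T-cell receptor gamma locus known from prostate and breast cancer cells (2.03), SELENOP, a secreted selenium carrier (1.94, with 0.71 at its other probe), WDR72 (1.88) and the potassium channel KCNK1 (1.83) completed the 14 largest rises. As the rule for these genes required, none of their arrays overlapped between the lines.

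**Figure D1:**
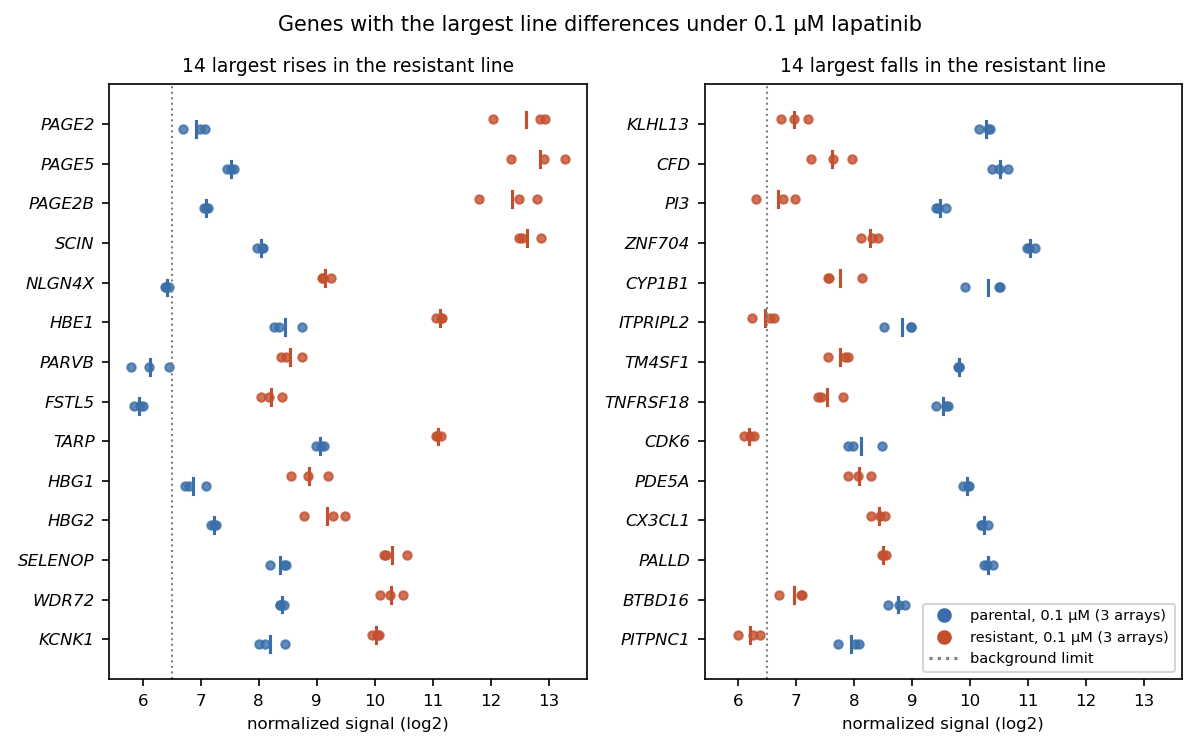
Normalized signal (log2, x axis) of the 14 genes with the largest rises (left) and the 14 with the largest falls (right) in the resistant line under 0.1 µM lapatinib; points are arrays, bars are means of 3 arrays, and the dotted line is the background limit. PAGE2 and SCIN pass from 8.08 or below in every parental array to 12.04 or above in every resistant array, and CDK6 and PITPNC1 fall below the limit in all resistant arrays.

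The largest falls included secreted and signalling proteins. KLHL13, a substrate adaptor of a cullin-based ubiquitin ligase, measured 10.31, 10.35 and 10.16 in the parental and 6.74, 7.21 and 6.96 in the resistant arrays. It fell by 3.30 ± 0.13 (adjusted p = 8.29e-17), and its other probe gave -2.03. CFD, the complement protease factor D, was at 10.51, 10.38 and 10.66 against 7.63, 7.96 and 7.27 (-2.90). PI3, which encodes the elastase inhibitor elafin, was at 9.45, 9.42 and 9.58 against 6.77, 6.99 and 6.30 (-2.80), the last of these below background. All parental arrays of these 3 genes stood more than 2-fold above all resistant arrays.

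ZNF704, a zinc finger protein, was lower by -2.76 (with -1.13 at its other probe). CYP1B1, a cytochrome P450 that oxidizes oestrogens and xenobiotics, was lower by -2.56. ITPRIPL2 (-2.36), the membrane protein TM4SF1 (-2.04), the TNF receptor family member TNFRSF18 (-2.00) and CX3CL1, a membrane-bound chemokine (-1.81), followed. CDK6, the kinase that works with D-type cyclins at the start of the cell cycle, read 8.48, 7.99 and 7.89 in the parental arrays and was below background on all resistant arrays (6.10, 6.28 and 6.21). It was at least 3.09-fold lower (adjusted p = 2.26e-11). PITPNC1, a phosphatidylinositol transfer protein, was at least 2.72-fold lower. PALLD, an actin-bundling scaffold (-1.80), BTBD16 (-1.78) and PDE5A, which breaks down cyclic GMP (-1.85), were also among the 14 largest falls, but the other probe of PDE5A gave 0.01.

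Transcripts of the drug's own targets did not pass the test between the lines. ERBB2 measured 15.26, 15.17 and 15.03 in the parental and 15.30, 15.27 and 15.50 in the resistant arrays. The difference was 0.20 ± 0.11 (adjusted p = 0.214 in limma). It was -0.21 under median scaling, which turns its direction, and 0.13 without resistant replicate 3, so its sign was not settled. ERBB3 (-0.18, adjusted p = 0.206), EGFR (0.0042, adjusted p = 0.985), ERBB4 (-0.06, adjusted p = 0.799) and GRB7, which lies in the ERBB2 amplicon (-0.27, adjusted p = 0.181), did not pass either. Under median scaling ERBB3 (-0.37, adjusted p = 0.0182) and GRB7 (-0.46, adjusted p = 0.0199) were called lower and EGFR was -0.16. With the mean of a gene's probes GRB7 was -0.04 and EGFR 0.19, and neither was called. Of 10 receptors and ligands tested, the ligand EGF alone was called (0.38, adjusted p = 0.0177), and that call ended under median scaling, with only the 6 arrays, and without parental replicate 1 or 2 or resistant replicate 3 (adjusted p = 0.0552 to 0.072). Bypass receptors that can stand in for ERBB2 gave MET -0.11 (adjusted p = 0.622) and IGF1R, near background, -0.34 (adjusted p = 0.0946).

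Among 22 adaptors and bypass kinases 6 were lower and 2 higher. IGFBP5, which binds insulin-like growth factors outside the cell, measured 11.38, 11.30 and 11.62 in the parental and 10.12, 10.13 and 9.94 in the resistant arrays. It was 2.59-fold lower (-1.37 ± 0.10), and its other probe gave -1.32. FGFR3 (-0.58), FGFR4 (-0.49) and IGFBP3 (-0.46) were lower, as was the insulin receptor adaptor IRS2 (-0.37), which was below background on all resistant arrays, at least 1.03-fold lower, and lost its call in 7 of 15 other settings. PIK3R1, the regulatory subunit of PI3K, gave -0.77 at the probe used and 0.30 and -0.15 at the others, and the mean of its probes was not called (adjusted p = 0.188). GAB2, a docking protein of the pathway (0.64), and AKT1 (0.40) were higher.

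Feedback and immediate early genes of the MAPK pathway were lower in 7 of 21 tested members and higher in 0, with a median of -0.15. JUN, a subunit of the AP-1 transcription factor, measured 9.84, 10.11 and 10.10 in the parental and 9.22, 9.25 and 8.39 in the resistant arrays (-1.06 ± 0.16, adjusted p = 1.7e-05). Resistant replicate 3 was the lowest, and without it the difference was -0.78. SPRED1 (-0.87) and SPRY4 (-0.73), both inhibitors of the pathway, were lower, with -0.08 and -0.30 at the other probes of SPRY4. ERRFI1, an inhibitor of EGFR and ERBB2 (-0.51), SPRY1 (-0.46), DUSP1 (-0.35) and IER3 (-0.27) were lower too. FOXO targets were split, 4 higher and 4 lower of 27 (2 higher under median scaling). TXNIP, which restrains glucose uptake (0.73), and CITED2 (0.53) were higher, while GADD45B (-0.70), PDK4, a brake on pyruvate oxidation (-0.56), and the ubiquitin ligase subunit FBXO32 (-0.39) were lower.

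**Figure D2:**
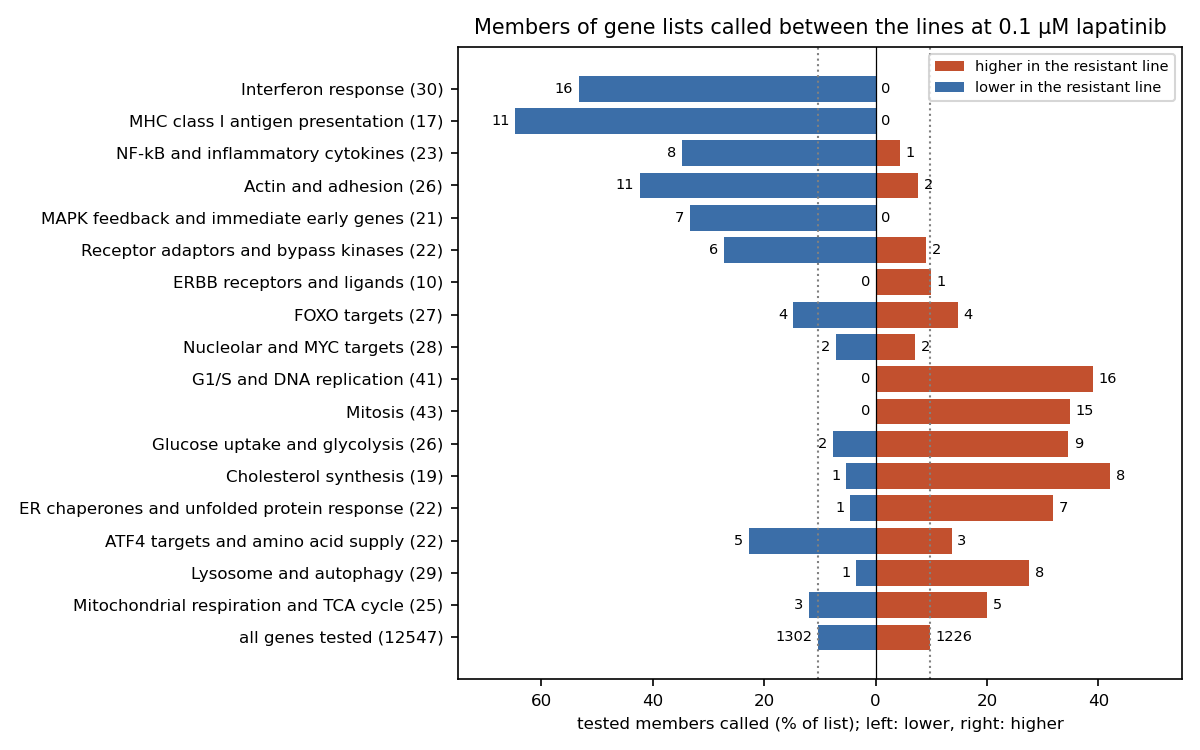
Share of the tested members of 17 gene lists, and of all genes, called lower (left) or higher (right) in the resistant line under 0.1 µM lapatinib; the number tested is in parentheses, the number called stands at each bar, and dotted lines mark the shares over all genes (10.4% lower, 9.77% higher). Members of the interferon and MHC class I lists were called in the lower direction only, and those of the mitosis and G1/S lists in the higher direction only. CDK6, called lower, is in none of these lists.

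In the lists of G1/S and mitosis genes the calls at this dose were all in the higher direction, and most members were not called. CDK6, below background on all resistant arrays (fitted difference -1.92, not exact), was counted in a separate list of CDK inhibitors and D cyclins. Of the 11 tested genes of that list 3 were lower, 0 higher and 8 not called. Of 41 tested genes of G1/S and DNA replication 16 were higher, 0 lower and 25 not called, with a median of 0.25. Of 43 mitosis genes 15 were higher, 0 lower and 28 not called, with a median of 0.22. E2F2, a transcription factor of S-phase genes, measured 9.29, 9.49 and 9.17 in the parental and 10.02, 10.11 and 10.27 in the resistant arrays. It was 1.76-fold higher (0.82 ± 0.10, adjusted p = 8.3e-07). CDK1, the kinase that starts mitosis, measured 10.56, 10.61 and 10.33 against 11.35, 10.92 and 11.25. It was 1.59-fold higher (0.67 ± 0.11, adjusted p = 6.79e-05), and its other probe gave 0.68. Every resistant array of both genes stood above every parental array.

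The replication genes FEN1, a flap endonuclease (0.69), POLA2, a subunit of the primase complex (0.67), and CDT1, which loads the MCM helicase (0.66), were higher, as were POLA1 (0.54), RRM2 (0.50) and CDC45 (0.49). In mitosis BIRC5 (0.58), which encodes survivin, NUSAP1 (0.51), CEP55 (0.50), KIFC1 (0.49), KIF14 (0.49) and the transcription factor FOXM1 (0.43) were higher. KIF23 (0.58) had -0.10 at its other probe, and the mean of its probes was not called (adjusted p = 0.137). The proliferation marker MKI67, close to background, was not called (0.10, adjusted p = 0.647), nor was CCND1, which encodes cyclin D1 (0.25, adjusted p = 0.0546, and -0.03 under median scaling). In 3 of 16 other settings CCND1 was called higher. ODC1, the first enzyme of polyamine synthesis, was higher (0.76), but nucleolar and MYC targets were split, 2 higher and 2 lower of 28 (1 and 6 under median scaling). Among inhibitors of the cell cycle CDKN2B (-1.14) and CDKN1A (-0.34, adjusted p = 0.0416) were lower, and CDKN1A lost its call in 8 of 16 other settings. CDKN1B, at 0.06 (adjusted p = 0.828), did not pass.

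The size of this shift depended on the scaling and on the arrays. Under median scaling 6 G1/S genes and 5 mitosis genes were higher, with medians of 0.10 and 0.085, and 1 mitosis gene was lower, as also with array weights and without resistant replicate 3. With only the 6 arrays fitted the counts were 8 and 11, and leaving out each array in turn gave 9 to 17 and 11 to 17.

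Under the other treatments fewer mitosis genes were called higher. Of the mitosis genes 6 were higher and 3 lower under basal conditions (median 0.12), where 15.5% of all genes were called (7.24% higher, 8.25% lower), and 0 higher and 4 lower at 1 µM (median -0.06), where 21.3% of all genes were called (9.32% higher, 11.9% lower). The mean level of the 43 mitosis genes was 9.86 to 9.91 (log2) in parental and 9.97 to 10.04 in resistant arrays under basal conditions. It was 9.02 to 9.16 and 9.29 to 9.42 at 0.1 µM, and 8.77 to 8.86 and 8.72 to 8.76 at 1 µM. The levels of the lines in the mitosis list thus lay farthest apart at the low dose and were in the reverse order at the high dose. The G1/S list did not reverse. Of its genes 4 were higher and 3 lower under basal conditions (median 0.05), and 3 higher and 2 lower at 1 µM (median 0.06). Its mean level at 1 µM was 9.32 to 9.34 in parental and 9.37 to 9.38 in resistant arrays. In the test of the difference between treatments no mitosis or G1/S gene was called. Without resistant 0.1 µM replicate 2, however, the test against 1 µM called 152 genes, among them the mitosis genes KIF14, NUSAP1 and TOP2A and the G1/S genes E2F2, PRIM1, RRM2 and UHRF1, all with the greater line difference at 0.1 µM. Without replicate 3 it called UHRF1 and the mitosis gene PTTG1. UHRF1 was also called against 1 µM with the mean of a gene's probes and with array weights. Against basal conditions RRM2 was called under median scaling, with the mean of a gene's probes, and without parental 0.1 µM replicate 2. These genes were named after their values were seen.

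**Figure D3:**
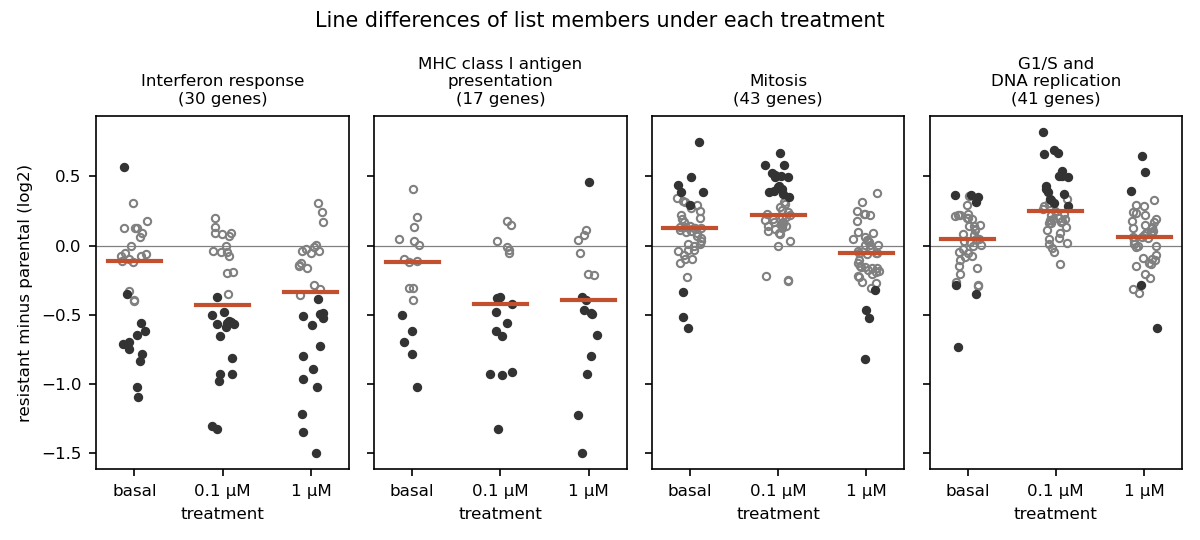
Line difference (resistant minus parental, log2, y axis) of each tested member of 4 gene lists under basal conditions, 0.1 µM and 1 µM lapatinib; filled points passed the test, open points did not, and bars are medians. The mitosis median is 0.12, 0.22 and -0.06 in that order, and the interferon median -0.11, -0.43 and -0.33.

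In the lists of interferon and antigen presentation genes the calls at 0.1 µM were all in the lower direction. MHC class I molecules display peptides that the immunoproteasome cuts and that the TAP transporter carries into the endoplasmic reticulum, and interferon raises the transcripts of most parts of this pathway. Of 30 tested interferon genes 16 were lower, 0 higher and 14 not called, with a median of -0.43. Of 17 genes of MHC class I presentation 11 were lower, 0 higher and 6 not called, with a median of -0.42. The lists share 4 of the lower genes, the immunoproteasome subunits PSMB8 and PSMB9 and the transporter subunits TAP1 and TAP2, so 23 genes were lower in all.

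The promoters of several of these genes carry the letters GAAA in 2 copies set 2 bases apart, a repeat found in sites of the interferon-regulatory factors and of the factor complex ISGF3. Windows of 4 genes are shown because these genes had large differences and hold the letters. They lie at chr6:32853655-32853954 (TAP1), chr16:67936801-67937100 (PSMB10), chr19:17405581-17405880 (BST2) and chr1:89065159-89065458 (GBP1), all on the minus strand of GRCh38.p14 (RefSeq, 300 bases around the start). Capitals mark each match, read on either strand with the 2 bases between the copies included, and overlapping matches run together.
TAP1: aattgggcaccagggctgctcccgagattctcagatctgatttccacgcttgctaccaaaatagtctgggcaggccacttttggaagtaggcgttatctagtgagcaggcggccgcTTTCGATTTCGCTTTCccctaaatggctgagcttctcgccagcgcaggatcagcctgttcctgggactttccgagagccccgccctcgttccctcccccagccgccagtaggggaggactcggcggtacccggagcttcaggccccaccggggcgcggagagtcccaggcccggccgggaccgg
PSMB10: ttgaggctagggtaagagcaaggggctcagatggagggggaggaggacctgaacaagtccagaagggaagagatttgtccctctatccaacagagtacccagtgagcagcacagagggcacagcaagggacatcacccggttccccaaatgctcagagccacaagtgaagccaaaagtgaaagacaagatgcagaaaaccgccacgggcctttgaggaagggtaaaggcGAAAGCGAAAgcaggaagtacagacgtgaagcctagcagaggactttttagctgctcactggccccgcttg
BST2: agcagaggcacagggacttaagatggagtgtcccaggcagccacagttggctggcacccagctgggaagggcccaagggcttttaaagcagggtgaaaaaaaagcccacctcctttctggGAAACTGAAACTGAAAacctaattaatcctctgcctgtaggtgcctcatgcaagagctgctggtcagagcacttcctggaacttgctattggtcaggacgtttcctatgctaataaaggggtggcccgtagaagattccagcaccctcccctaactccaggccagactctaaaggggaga
GBP1: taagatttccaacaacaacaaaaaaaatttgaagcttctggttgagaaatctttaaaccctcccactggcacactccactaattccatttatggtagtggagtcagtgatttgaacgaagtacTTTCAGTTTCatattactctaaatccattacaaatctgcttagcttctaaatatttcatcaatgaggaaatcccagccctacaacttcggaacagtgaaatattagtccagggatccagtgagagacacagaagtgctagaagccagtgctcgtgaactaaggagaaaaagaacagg
Of the 20 lower members with a promoter window, 14 (70%) held a match, as did 10 of 16 members that were not called (62.5%). Among all windows the share was 3.57% (1255 of 35116), and among tested genes with a window it was 3.89%. The letters were thus common in these lists whether or not a member was called.

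TAP1 measured 11.57, 11.64 and 11.81 in the parental and 10.27, 10.47 and 10.32 in the resistant arrays. It was 2.5-fold lower (-1.32 ± 0.09, adjusted p = 2.12e-11). GBP1, an interferon-induced GTPase, measured 8.16, 8.22 and 8.34 against 6.85, 6.74 and 7.21 (-1.31 ± 0.14, adjusted p = 1.07e-07). In both genes every resistant array was below every parental array.

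The transcription factor IRF1, itself interferon-induced, was at 9.83, 9.82 and 9.82 against 8.88, 8.72 and 8.94 (-0.98). The immunoproteasome subunit PSMB10 was at 12.22, 12.31 and 12.44 against 11.37, 11.62 and 11.17 (-0.94). BST2, which tethers budding viruses, was lower by -0.93 and PSMB9 by -0.93. The proteasome activator subunits PSME1 (-0.92) and PSME2 (-0.66), the loading factor TAPBP (-0.62), HLA-B (-0.56) and HLA-E (-0.38) were lower as well, but the other probe of PSME1 gave -0.09. Among interferon targets GBP2 (-0.82), UBE2L6 (-0.66), IFI6 (-0.59), ISG15 (-0.57), IFI27 (-0.56), IRF9 (-0.56), IFITM3 (-0.55) and IRF7 (-0.50) were lower. Other classical targets, among them IFIT1, MX1, OAS3, IFIH1, IFITM1 and ISG20, were not called. Neither were B2M, HLA-F and ERAP1 of the MHC class I list. Leaving out each of the 6 arrays in turn gave 13 to 15 lower interferon and 6 to 10 lower MHC class I genes, and median scaling gave 17 and 11. With only the 6 arrays 7 MHC class I genes were lower, and without resistant replicate 3 each list had 1 higher gene.

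The mean level of the interferon list at 0.1 µM was 8.20 to 8.35 in the parental and 7.84 to 7.95 in the resistant arrays. It was 8.11 to 8.23 and 7.88 to 7.91 under basal conditions, and 8.24 to 8.33 and 7.86 to 7.88 at 1 µM. The levels of the lines in this list were thus apart without drug as well. Under basal conditions 11 of its genes were lower and 1 higher (median -0.11), and at 1 µM 14 were lower and 0 higher (median -0.33). For MHC class I the counts were 5 lower and 0 higher under basal conditions (median -0.12), and 10 lower and 1 higher at 1 µM (median -0.39). The mean level of that list was 9.15 to 9.21 in parental and 8.87 to 9.02 in resistant arrays under basal conditions. It was 9.27 to 9.38 and 8.82 to 8.91 at 0.1 µM, and 9.30 to 9.37 and 8.88 to 8.96 at 1 µM. TAP1 was lower by -1.02, -1.32 and -1.50 under basal conditions, 0.1 µM and 1 µM. None of the genes of these lists was called in the test of a difference between treatments on all arrays, and without resistant 0.1 µM replicate 2 ERAP2, which trims peptides for MHC class I, was called against 1 µM.

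Of 23 tested NF-kB targets and cytokines 8 were lower, 14 were not called and 1, the mitochondrial superoxide dismutase SOD2 (0.33), was higher, with a median of -0.17. Besides PI3 these were the calcium-binding proteins S100A9 (-1.19), S100A7 (-1.06) and S100A8 (-0.99), the chemokine CCL5 (-0.91), the acute phase protein SAA1 (-0.80), the NF-kB inhibitor NFKBIA (-0.61) and TNF (-0.40). S100A7 measured 8.19, 8.26 and 8.71 in the parental and 7.51, 7.66 and 6.79 in the resistant arrays, of which replicate 3 was the lowest.

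**Figure D4:**
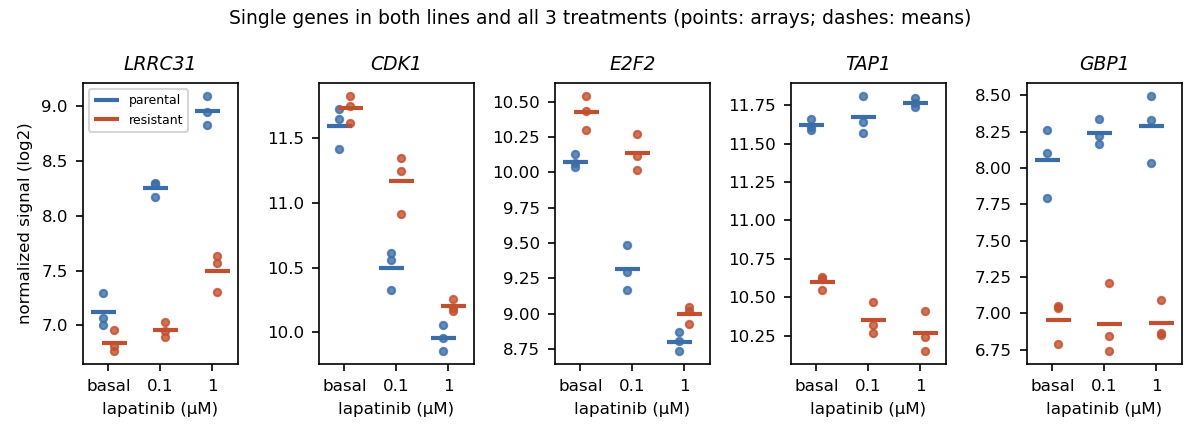
Normalized signal (log2, y axis, a separate scale for each gene) of LRRC31, CDK1, E2F2, TAP1 and GBP1 in both lines and all 3 treatments; points are arrays and dashes are means of 3 arrays. At 0.1 µM all resistant arrays of CDK1 and E2F2 lie above the parental ones, and all resistant arrays of TAP1, GBP1 and LRRC31 below.

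Metabolic lists had more higher than lower calls, with a dependence on scaling. These lists touch glucose deprivation and stress, themes known from the study of these samples, and are not independent evidence of a direction. Of 26 genes of glucose uptake and glycolysis 9 were higher and 2 lower (median 0.20), while under median scaling 1 was higher and 4 were lower (median -0.035). PGD of the pentose phosphate pathway was higher (0.86), as were TALDO1 (0.55) and TKT (0.38) of the same pathway. HK2, which traps glucose in the cell (0.56, with 1.13 at its other probe), and LDHB (0.55) were higher, but both calls ended under median scaling (adjusted p = 0.0917 and 0.117), and that of HK2 also without resistant replicate 1 (adjusted p = 0.0512). The platelet isoform of phosphofructokinase, PFKP, was lower (-0.92), at 11.12, 11.18 and 11.19 against 10.32, 10.22 and 10.20. The glucose transporter SLC2A1 did not pass (0.15, adjusted p = 0.287).

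Of 19 genes of cholesterol synthesis 8 were higher and 1 lower (median 0.25), and under median scaling 3 were higher and 1 lower (median 0.093). IDI1, which isomerizes the isoprenoid unit, measured 8.19, 8.42 and 8.42 in the parental and 9.08, 9.22 and 9.26 in the resistant arrays (0.85). ACAT2 (0.65) had -0.04 at its other probe, and HMGCS1 (0.59) lost its call under median scaling (adjusted p = 0.0691). SC5D (0.62), PMVK (0.45) and DHCR7 (0.37) were higher, and HSD17B7 was lower (-0.58). Among 25 genes of respiration and the TCA cycle 5 were higher and 3 lower, and median scaling turned this to 1 higher and 11 lower. SDHA, which belongs to both, was higher (0.87, with 0.91 at its other probe).

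Chaperones of the endoplasmic reticulum and genes of the unfolded protein response were higher in 7 cases and lower in 1 of 22 (median 0.19, and -0.039 under median scaling with 3 higher and 1 lower). HSPA5, the main chaperone of this compartment, measured 9.34, 9.20 and 9.08 in the parental and 9.86, 9.99 and 10.15 in the resistant arrays (0.80, adjusted p = 1.11e-06). HYOU1, its exchange factor, was higher by 0.81, and DNAJC3 by 0.49. In contrast, of 22 targets of the stress factor ATF4 5 were lower and 3 higher, and leaving out each array gave 3 to 5 of each. ATF3 was at 9.41, 9.50 and 9.47 in the parental and 8.40, 8.15 and 8.39 in the resistant arrays (-1.15). CBS, an enzyme of cysteine synthesis (-0.93), and DDIT4 (-0.40) were lower, as was DDIT3 (-0.36), whose call ended with only the 6 arrays, with array weights, and without parental replicate 2 or resistant replicate 3 (adjusted p = 0.0649 to 0.108). The serine synthesis genes PSAT1 (0.56) and PHGDH (0.54) and the amino acid transporter SLC7A5 (0.49) were higher. Lysosome and autophagy genes were higher in 8 and lower in 1 of 29 (median 0.13, and -0.060 under median scaling with 3 higher and 4 lower), led by the protease CTSH (0.91), acid glucosidase GAA (0.75) and the lysosomal transcription factor TFE3 (0.62). The autophagy receptor SQSTM1 was lower (-0.43).

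Among 26 actin and adhesion genes 11 were lower and 2 higher (median -0.19). The higher genes were SCIN and PARVB. CHN1, a GTPase activator for Rac, read 8.05, 7.97 and 7.86 in the parental arrays, was below background on all resistant arrays, and was at least 2.76-fold lower. BASP1, a membrane-bound protein of the cell cortex (-1.41), the tropomyosins TPM2 (-0.98) and TPM4 (-0.55), the actin crosslinkers ACTN4 (-0.46) and ACTN1 (-0.31), and vinculin, VCL (-0.25), were lower. With only the 6 arrays fitted 6 were lower, and leaving out each array gave 6 to 10.

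Transporters and enzymes that handle drugs went both ways. Of 11 tested efflux transporters 4 were higher and 2 lower. The higher ones numbered 1 under median scaling or with only the 6 arrays, and 2 to 5 with an array left out, while the lower ones stayed at 2. ABCC4 (-1.28, with -1.18 at its other probe) and ABCC3 (-1.10) had the largest differences, and ABCA3 (0.67) was higher. ABCB1, which encodes P-glycoprotein, was near background and not called (-0.20, adjusted p = 0.359), and ABCG2 was too dim to test. CYP4B1, a cytochrome P450, measured 9.09, 8.96 and 9.30 in the parental and 10.80, 10.22 and 10.77 in the resistant arrays (1.48). ALDH3B2, an aldehyde dehydrogenase, was 1.56 higher, while its other probes gave 0.45 and 1.40.

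The last question was how far the differences at 0.1 µM belonged to the lines in general. The line differences under the 3 treatments share no arrays. Across 12547 genes the difference at 0.1 µM correlated with that under basal conditions at r = 0.775 (Spearman rho = 0.609) and with that at 1 µM at r = 0.754 (rho = 0.585), as a description over genes that are not independent.

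Of the genes higher at 0.1 µM, 557 were also higher under basal conditions (45.4% of the low-dose list and 61.3% of the basal list) and 660 at 1 µM (53.8% and 56.5%). Of the genes lower, 672 were lower under basal conditions (51.6% and 64.9%) and 779 at 1 µM (59.8% and 52.0%). Opposite calls numbered 1 against basal conditions and 5 against 1 µM. Of the 164 genes with at least a 2-fold difference, 161 were called in the same direction under basal conditions and 160 at 1 µM. All 3 treatments shared 424 higher and 540 lower genes. At 0.1 µM, 433 higher and 391 lower genes were called that were called in the same direction under neither other treatment.

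The largest differences were of similar size with and without drug. PAGE2 differed by 5.51, 5.69 and 5.47 under basal conditions, 0.1 µM and 1 µM, and KLHL13 by -3.11, -3.30 and -3.25. SCIN differed by 4.09, 4.60 and 4.35. CYP1B1 differed less at the low dose (-3.33, -2.56 and -3.56), and TARP differed most at 1 µM (1.26, 2.03 and 2.42). The changes of CYP1B1 and TARP between treatments were not called.

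**Figure D5:**
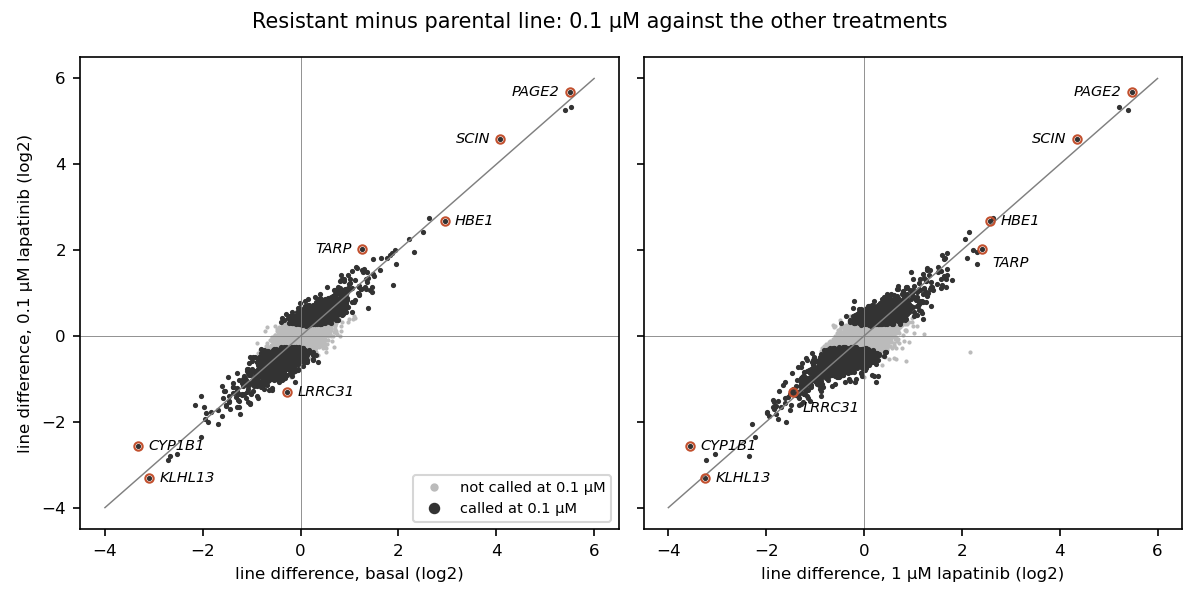
Line difference at 0.1 µM lapatinib (y axis, log2) against the line difference under basal conditions (left) and at 1 µM (right) for 12547 genes; black points were called at 0.1 µM, grey points were not, circles mark named genes and the diagonal is equality. Genes such as PAGE2 (5.69) and KLHL13 (-3.30) lie near the diagonal, while LRRC31 lies off it against basal conditions (-0.28) and near it against 1 µM (-1.46).

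The test of the difference between the treatments called 1 gene of 12547 (0.00797%) against basal conditions and 0 (0%) against 1 µM, with 1061 and 1463 genes at an unadjusted p under 0.05 in limma. Against 1 µM the count was 152 without resistant 0.1 µM replicate 2, 15 without resistant 0.1 µM replicate 3 and 1 without resistant 1 µM replicate 1. The gene was LRRC31, a leucine-rich repeat protein known from epithelia. Its parental arrays read 7.29, 7.07 and 7.01 under basal conditions and 8.17, 8.29 and 8.30 at 0.1 µM. Its resistant arrays read 6.76, 6.81 and 6.95 under basal conditions and 6.95, 6.89 and 7.03 at 0.1 µM. The parental arrays were thus higher at the low dose, while the resistant arrays lay near the background limit under both.

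The line difference of LRRC31 moved from -0.28 to -1.30, a change of -1.02 ± 0.17 (adjusted p = 0.0217). At 1 µM the parental arrays read 9.10, 8.95 and 8.83 and the resistant arrays 7.63, 7.30 and 7.57, a line difference of -1.46. The call ended with only the 12 arrays of the contrast (adjusted p = 0.0612) and without any 1 of resistant 0.1 µM replicates 1 and 2, parental basal replicates 2 and 3, and resistant basal replicates 2 and 3 (adjusted p = 0.0526 to 0.148).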

How the data were processed

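RNA of 18 samples was measured on Illumina arrays, 3 for each of 6 groups taken from the labels. Total RNA was amplified into biotin-labelled cRNA, per the labels, and BeadStudio was used for the export, per the submitters' processing notes, with no version given in the sources used here. The authors deposited a non-normalized table of probe intensity on a linear scale and a second table of intensity that, by its values, is quantile-normalized. The tables hold 48803 probes, while the labels state 48697.

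The non-normalized intensity was processed with R 4.3.3 and limma 3.58.1: normexp background correction (offset 50), quantile normalization and log2. The tables used hold no detection p-values or control probes, so the planned filter was set on the values: background was the mode of an array's log2 signals, with the spread of the values under it, and a probe counted as above it past the upper 0.05 tail of that background. A probe was kept if this held on 3 or more of 18 arrays (22706, of which 16772 had 1 gene symbol). The probe table names 1 gene for 28098 probes, several for 13 and none for 20692, and 28059 symbols were updated by gene identifier through RefSeq. For 3273 genes with several kept probes the brightest was used, leaving 12547 genes.

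All 18 arrays entered 1 linear model with a mean for each group, fitted by lmFit and contrasts.fit with a trended eBayes step and 12 residual degrees of freedom. P-values were two-sided and adjusted by Benjamini-Hochberg over all genes within a contrast (threshold 0.05). Where every array of a group was below background, the difference is given as at least N-fold against the background limit. The fit was also run on simulated data with changes of known size. Their noise was independent and, for each gene, equal on all 18 arrays. That run therefore cannot test the p-values where the resistant 0.1 µM arrays spread more widely than the others. Promoter windows are RefSeq's.

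The members and gene lists were chosen with earlier results of these data known, so no list was tested. Named genes were the 14 largest rises and falls among called genes without overlap, up to 4 called members per list by size, the largest differences between treatments, and a set panel (receptors, stress genes, cell cycle genes and drug transporters). Other list members in the text were named after their values were seen, from the called members of each list. Replicate numbers did not pair the samples: at 0.1 µM deviations of same-numbered arrays correlated at -0.060, -0.062 and -0.204, and between -0.074 and 0.071 at the other treatments. The replicate block was therefore only an alternative, beside other normalizations, filters, probe rules, array weights and each array left out.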

Additional observations from a re-analysis of the deposited data

Results flagged for a closer look

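LRRC31 was marked because the line difference at 0.1 µM differed from that under basal conditions by the test of that difference, with a change of -1.02 ± 0.17 (SE) on the log2 scale (limma adjusted p = 0.0217). The line difference was -0.28 under basal conditions and -1.30 at 0.1 µM. At 0.1 µM all 3 resistant arrays lay below all 3 parental arrays. Leaving out any 1 of 6 arrays (resistant 0.1 µM replicates 1 and 2, and replicates 2 and 3 of both lines under basal conditions) gave an adjusted p of 0.0526 to 0.148.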

How the results depend on the processing

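For the line difference at 0.1 µM the authors' normalized values, no background correction, other filters, the mean of a gene's probes, no intensity trend and array weights gave 2173 to 2664 calls against 2528, and leaving out each array gave 2015 to 2533. The filters changed the number of genes tested, to 18852 without a filter (2325 calls) and 10165 with a stricter one (2664 calls). A test on probes called 3258 of 22706 probes. Fitting only the 6 arrays gave 1474, with 2 groups in place of 6 to estimate the spread. The same step raised the calls under basal conditions from 1944 to 2218 and at 1 µM from 2667 to 3362. Root mean square distances from the other replicates were 0.237 to 0.301 in the resistant 0.1 µM group and 0.164 to 0.208 in other groups. A spread shared by all 6 groups may thus be too small for the comparison at 0.1 µM. Median scaling kept the count at 0.1 µM (2595) but left 18.3% of calls higher in place of 48.5%. Under basal conditions it gave 4174 calls (317 higher, 3857 lower) against 1944, with a median shift of -0.19 over all genes. Leaving out each array gave 1428 to 1570 calls under basal conditions and 2055 to 2180 at 1 µM. The difference between 0.1 µM and basal conditions had 1 call, 5 under median scaling, 2 with the mean of a gene's probes, 2 with array weights, 0 with only the arrays compared, and 0 to 3 with an array left out. The difference between 0.1 µM and 1 µM had 0 calls, 2 with a stricter filter, 5 with the mean of a gene's probes, 2 without the intensity trend, 17 with array weights, and 0 to 152 with an array left out. The causes of these shifts were not tested. The replicate block gave 2471, 1880 and 2601 calls at 0.1 µM, basal conditions and 1 µM, and 1 and 0 for the differences between treatments, so it changed no count by over 1.5 times. Of 139 named genes called, 100 kept their call under every setting and 39 lost it under at least 1, with 0 reversed. Of 17 not called, 6 were called under at least 1 setting. Signal limits dim genes: 48 called genes were below background on all parental and 68 on all resistant arrays at 0.1 µM, and their fitted values are not exact.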

Other observations

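Further lists held large single differences at 0.1 µM without a common direction. Of 20 hypoxia-inducible genes 5 were higher (3 under median scaling or with only the 6 arrays) and 2 lower. ADM, a vasodilator peptide, measured 10.67, 10.63 and 10.60 in the parental and 8.93, 9.16 and 9.20 in the resistant arrays (-1.54), while NDRG1 (1.12) and the carbonic anhydrase CA12 (0.95) were higher. Of 19 heat shock genes the small chaperone HSPB8 was higher (1.24) and HSPB1 lower (-0.60), and 15 were not called. Under median scaling 1 of these genes was higher and 5 were lower, with HSPB1 at -1.05. Of 16 NRF2 targets 4 were higher and 4 lower, among them HMOX1, which breaks down haem (-0.72). This split was 1 higher and 6 lower under median scaling, and 1 and 4 with only the 6 arrays or without parental replicate 3.

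Of 17 luminal transcription factors and hormone receptors 4 were higher, 1 lower and 12 not called. Of 19 luminal surface and keratin genes 5 were higher, 2 lower and 12 not called, and median scaling turned this to 2 higher and 7 lower. MUC1, a mucin of luminal epithelium (0.69, but 0.46 under median scaling and 0.45 without resistant replicate 3), and PRLR, the prolactin receptor (0.80), were higher, and the zinc-binding glycoprotein AZGP1 was lower (-1.65), at 8.84, 9.01 and 9.34 in the parental against 7.52, 7.46 and 7.28 in the resistant arrays. TGFBI, a matrix protein, was higher (1.27) and was the single call among 12 basal and mesenchymal markers. In the BCL2 family 1 of 13 tested genes was higher and 3 were lower. PMAIP1 (0.37) was higher and BIK (-0.44) and BID (-0.43) lower, calls that ended in 8, 6 and 3 of 16 other settings. BCL2L1 was lower (-0.44), with 0.20 at its other probe and an adjusted p of 0.441 for the mean of its probes. BCL2 (-0.24, adjusted p = 0.213), MCL1 (-0.26, adjusted p = 0.112, but 0.0184 under median scaling) and BCL2L11 (-0.06, adjusted p = 0.824) did not pass in limma.

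In the metallothioneins 1 array decided the values. MT1X measured 12.58, 12.53 and 12.85 in the parental and 12.37, 12.57 and 10.81 in the resistant arrays, so that resistant replicate 3 stood apart. Its difference of -0.74 became -0.19 without that array (adjusted p = 0.238), and that of MT1F (-0.55) became -0.20 (adjusted p = 0.352). MT1G, at 8.76, 8.94 and 7.29 in the resistant arrays, moved from 0.66 to 1.18.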
